A study of Mus musculus with 12 samples.

Results

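The expression of 9 genes for hexosamine and nucleotide sugar synthesis was described in mouse liver: Gfpt1, Gfpt2, Gnpnat1, Pgm3, Uap1, Gmppb, Gmds, Nans and Pgm2. These genes were chosen by their measured FPKM in the same 12 livers, from the levels in the control, model, silibinin and phloridzin groups. Every fold change and every call against a cutoff given for them below is therefore a description and not an independent test. FPKM relates the fragments of a transcript to its length in kilobases and to the size of the library, and the value of a gene is the sum over its transcripts. All 9 were found among the 24296 genes with a symbol in the deposited table. All 9 also had a mean of at least 0.5 FPKM over the 12 livers, as did 13158 genes in total, but Gfpt2 reached that mean only through the livers given CCl4.

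The livers came from male C57/BL6N mice, with 3 livers in each of 4 groups. The control group is labelled only as WT, and its vehicle and the age of the mice are not given in the sources used here. The model group was injected intraperitoneally with carbon tetrachloride (CCl4), a liver toxin dissolved in olive oil, 2 times per week over 8 weeks. The stated dose of 5 mL/kg is given for CCl4 dissolved in the oil and is not read here as 5 mL/kg of pure CCl4. Mice of the silibinin and phloridzin (high-dose) groups were given the same CCl4 and, from week 5, silibinin (a flavonolignan of milk thistle) or phloridzin (a glucoside from apple trees known to inhibit glucose uptake by sodium-glucose cotransporters). The doses of silibinin and phloridzin in mg/kg differed, so the drugs are compared below at unequal doses, and phloridzin was at the highest of its doses in the study. Both drugs were given while CCl4 continued, so no group shows recovery after the toxin was stopped. The labels name the replicates as separate samples of a group and do not say that each is a separate mouse, so the intervals below measure the spread between these samples.

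The hexosamine pathway turns fructose 6-phosphate and glutamine into UDP-N-acetylglucosamine (UDP-GlcNAc), the sugar donor for N-glycans, hyaluronan and O-GlcNAc on intracellular proteins. Gfpt1 and Gfpt2 encode the glutamine-fructose-6-phosphate aminotransferases that catalyse its entry step, which is the rate-limiting one. Gnpnat1 (the acetyltransferase), Pgm3 (the mutase) and Uap1 (the pyrophosphorylase) encode the enzymes of the later steps. Gmppb belongs to the synthesis of GDP-mannose, Gmds to the conversion of GDP-mannose to GDP-fucose, and Nans to the synthesis of sialic acid. A phosphoglucomutase interconverts glucose 1-phosphate and glucose 6-phosphate, and so lies between glycogen, UDP-glucose and the hexose phosphates. The secretory pathway of hepatocytes uses these sugars to glycosylate the plasma proteins that the liver exports.

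The libraries held between 83.7 and 110.9 M fragments, and the smallest was that of model replicate 1. The tissue label was borne out by hepatocyte genes. Albumin (Alb) had 10970.5 to 29356.6 FPKM in the 12 livers, and Hnf4a, a hepatocyte transcription factor, had 88.7 to 126.2 FPKM. The transthyretin gene Ttr was uneven, at 10.3 FPKM in phloridzin replicate 1 and 39.8 FPKM in control replicate 1 but 2530.1 FPKM in phloridzin replicate 2, and the cause was not tested. Phloridzin replicate 1 stood apart. Its log2(FPKM + 1) values over the 13158 genes correlated with the other livers of its group at Pearson's r of 0.918 and 0.922, whereas those correlated with each other at 0.95. These are correlations across genes, which are not independent replicates. Log2 fold changes of the 9 genes with phloridzin are therefore also given without this liver; the other genes and the lists are given with all livers.

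Several of these genes overlap a gene on the opposite strand, and the sources used here do not say whether the libraries or the quantification kept the strand. Gnpnat1 lies within the span of Styx, Gmppb overlaps Rnf123, Nans overlaps Trim14 and Gmds contains Gm11380, while Pgm3 meets Dopey1 and Pgm2 meets Itgb3bp only at an end. Their levels may therefore include fragments of the opposite gene. No such gene is named here for Gfpt1, Gfpt2 and Uap1, but assembled transcripts without a position could not be checked there. Positions are those of the mouse build GRCm38. Gfpt1 (ENSMUSG00000029992) lies on chromosome 6 from 87042846 to 87092197, and Gfpt2 (ENSMUSG00000020363) on chromosome 11 from 49794178 to 49838613. Gnpnat1 (ENSMUSG00000037722) lies on chromosome 14 from 45376334 to 45388961, Pgm3 (ENSMUSG00000056131) on chromosome 9 from 86554377 to 86571842 and Uap1 (ENSMUSG00000026670) on chromosome 1 from 170141938 to 170174957. Gmppb (ENSMUSG00000070284) is on chromosome 9 from 108049242 to 108052801, Gmds (ENSMUSG00000038372) on chromosome 13 from 31819579 to 32338740 and Nans (ENSMUSG00000028334) on chromosome 4 from 46489248 to 46503632.

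The row named Pgm2 in the table needs care. Its identifier, ENSMUSG00000025791, and its position on chromosome 4 from 99929414 to 99987294 belong to the gene that GENCODE M21 and RefSeq call Pgm1, which encodes the main phosphoglucomutase. The row named Pgm1 (ENSMUSG00000029171, chromosome 5 from 64092950 to 64128351) is the gene now called Pgm2, whose enzyme prefers pentose phosphates. The symbols are used here as the table gives them, and the row named Pgm1 is described beside the member Pgm2.

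With the values known, the promoters of the 9 genes were searched for motifs of the endoplasmic reticulum and amino acid stress responses. The motifs were ERSE (CCAAT, any 9 bases, then CCACG), ERSE-II (ATTGG, any base, then CCACG), the TGACGTG core and the TGATGNAA core, each on both strands. RefSeq promoter windows of 300 bases around the start (GRCm38.p6) were at hand for 6 of the 9 genes, namely Gfpt1, Gfpt2, Pgm3, Uap1, Gmds and Pgm2, and not for Gnpnat1, Gmppb and Nans. Of these 6 windows, 1 held a match. It is the window of Uap1, on the minus strand at chr1:170174915-170175214, where TGACGTG lies at bases 2 to 8 counted from the start of the gene as base 1. This core is in 2.01% of the 32851 promoter windows of the genome, the TGATGNAA core in 3.97%, ERSE in 0.119% and ERSE-II in 0.0365%. Of the stress genes given further below, Xbp1, Atf4, Ddit3, Hspa5, Dnajb9 and Sdf2l1 had a window, and only that of Hspa5 held matches, 1 ERSE and 1 TGACGTG. A match is a description of letters and not of a binding site, and the absence of one says only that these letters are not in the window. The windows of Uap1 and of Gfpt1 (plus strand at chr6:87042596-87042895) are printed 5′ to 3′ with the match in capitals.
Uap1: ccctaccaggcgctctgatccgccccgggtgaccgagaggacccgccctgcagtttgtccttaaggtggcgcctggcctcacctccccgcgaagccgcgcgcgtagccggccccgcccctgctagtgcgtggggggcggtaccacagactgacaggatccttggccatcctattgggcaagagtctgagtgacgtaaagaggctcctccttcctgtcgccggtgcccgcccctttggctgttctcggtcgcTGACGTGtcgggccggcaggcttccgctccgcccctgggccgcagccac
Gfpt1: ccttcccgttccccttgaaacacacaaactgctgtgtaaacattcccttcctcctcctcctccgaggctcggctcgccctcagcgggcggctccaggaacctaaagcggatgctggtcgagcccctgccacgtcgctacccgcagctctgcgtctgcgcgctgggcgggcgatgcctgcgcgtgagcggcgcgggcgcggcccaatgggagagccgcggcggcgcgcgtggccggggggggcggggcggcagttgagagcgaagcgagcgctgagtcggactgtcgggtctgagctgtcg

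In FPKM, which is per length and so allows genes to be compared, the order of the 9 genes in the control group was led by Pgm2 with a mean level of 82.9 FPKM. Uap1 (13.5), Gnpnat1 (11.7) and Gfpt1 (8.77 FPKM) came next and overlapped one another between livers, followed by Pgm3 (6.27) and Gmppb (6.25 FPKM), which overlapped each other and the lower livers of Gfpt1. Nans had a mean of 3.21, Gmds of 0.569 and Gfpt2 of 0.151 FPKM, and none of these overlapped its neighbours. The order in the model group differed. Pgm2 (61.9 FPKM) still led, but Gfpt1 was next at 35.7 FPKM and did not overlap Gnpnat1 (26.6) or Uap1 (24.0 FPKM). Gmppb followed at 18.3 FPKM and Nans at 12.1 FPKM, which overlapped Pgm3 (9.77 FPKM), and Gmds (3.18) and Gfpt2 (3.05 FPKM) were lowest and overlapped. Both orders leave out a NONCODE transcript inside Gnpnat1 that is described below. With it, Gnpnat1 had means of 36.8 FPKM in the control and 51.6 FPKM in the model group, above those of Gfpt1.

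**Figure D1:**
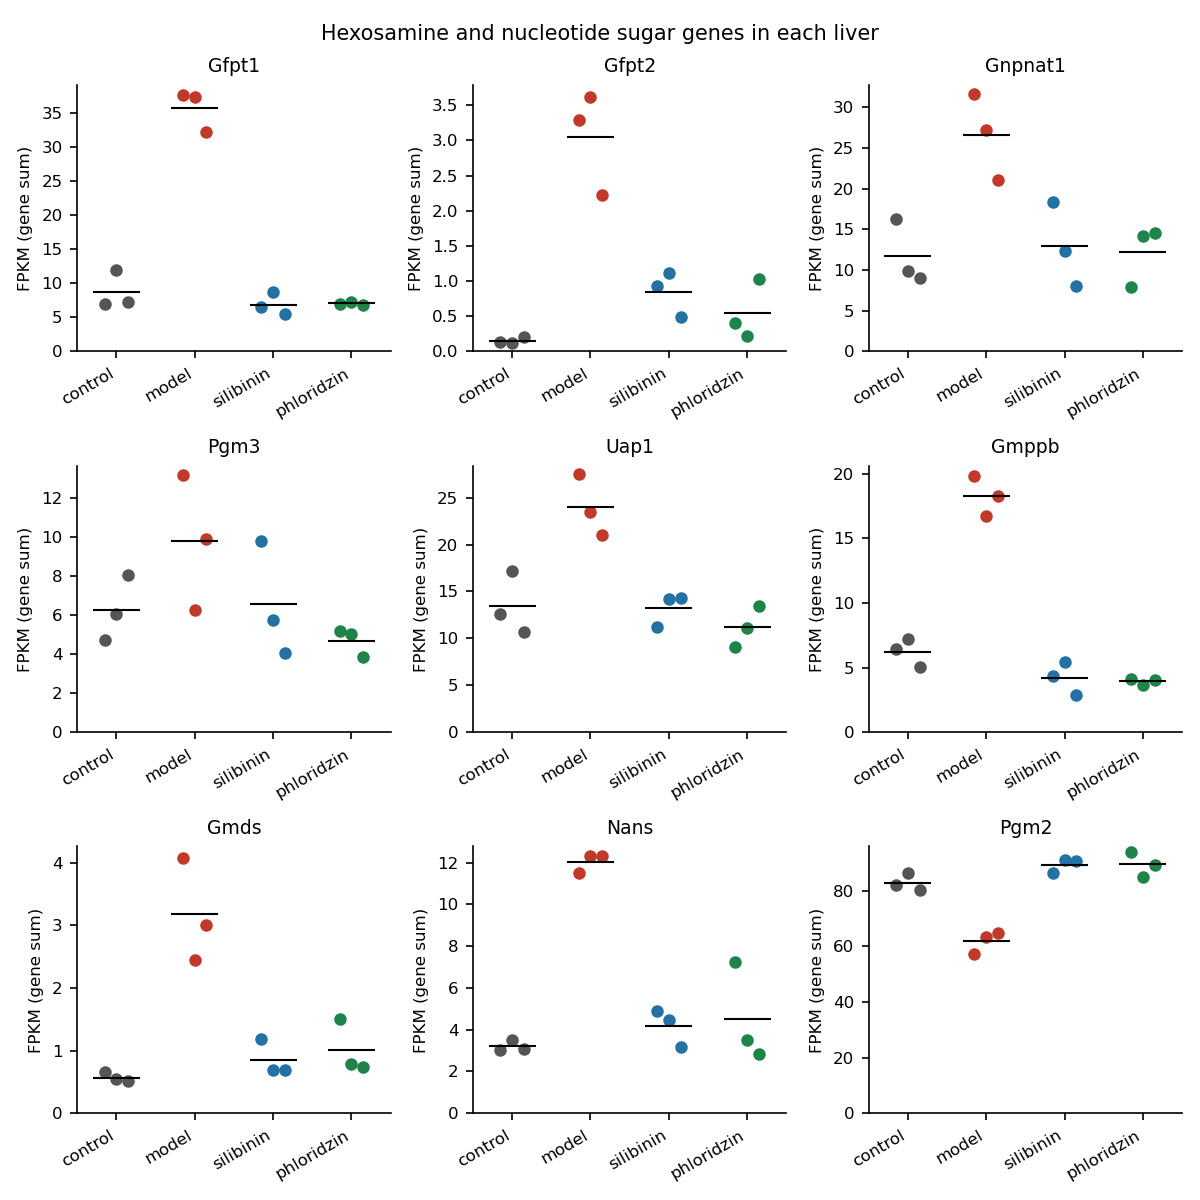
Each panel plots 1 gene, with the FPKM summed over its transcripts on a linear axis from 0. Points are the 3 livers of each group and bars are group means; Gfpt1, Gmppb and Nans in the model group lie far above the livers of the other groups, while Pgm2 is lower in the model group (57.3 to 65.0 FPKM) than in any other liver.

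Gfpt1, which encodes the entry enzyme found in most tissues, had 7.02, 12 and 7.26 FPKM in the control livers and 37.6, 37.4 and 32.2 FPKM in the model livers. It had 6.49, 8.69 and 5.41 FPKM in the silibinin group and 6.99, 7.27 and 6.82 FPKM in the phloridzin group. Every model liver was thus above every other liver, and the drug groups lay within or below the range of the controls. The group means were 8.77 ± 2.83, 35.7 ± 3.07, 6.87 ± 1.67 and 7.03 ± 0.228 FPKM (SD, n = 3 livers each), so that the mean of the model group was 4.07 times that of the control group, 5.21 times that of the silibinin group and 5.09 times that of the phloridzin group. In such bulk tissue, fewer cells of a type and less RNA per cell cannot be told apart. Control replicate 2 had the highest control value, to which the coding transcript ENSMUST00000032057 contributed, at 3.19 FPKM there and 0.079 and 0.164 FPKM in the other control livers. The transcript ENSMUST00000113658, which carried 74.6% of the sum over the 12 livers, had 5.53, 6.47 and 5.63 FPKM in the controls and 27.7, 27.4 and 24.7 FPKM in the model group.

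Gfpt2, its paralog with a narrower expression, was low. The control livers had 0.136, 0.114 and 0.203 FPKM and the model livers 3.29, 3.62 and 2.23 FPKM. Silibinin livers were at 0.922, 1.11 and 0.491 FPKM and phloridzin livers at 0.398, 0.212 and 1.03 FPKM. The model group was again above all other livers, but here the drug groups stayed above the controls, in the case of phloridzin replicate 2 (0.212 FPKM) and control replicate 3 (0.203 FPKM) by very little. These values rest on few fragments. The coding transcript ENSMUST00000020629 was represented by 34, 18 and 45 fragments in the control livers, 632, 982 and 557 in the model livers, 290, 286 and 116 in the silibinin livers and 95, 54 and 244 in the phloridzin livers. Gfpt2 made up 0.94 to 2.72% of the summed FPKM of the Gfpt pair in the control livers and 6.48 to 8.82% in the model livers. Its share was 8.31 to 12.4% in the silibinin group and 2.83 to 13.1% in the phloridzin group, which overlapped that of the model group.

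Gnpnat1, the acetyltransferase of the next step, had 16.3, 9.89 and 9.04 FPKM in the control group and 31.6, 27.2 and 21.1 FPKM in the model group. The silibinin livers had 18.4, 12.3 and 8.04 FPKM and the phloridzin livers 7.88, 14.2 and 14.5 FPKM. The model group did not overlap the others, yet the spread within each group was wide. Its transcripts did not move alike. The transcript ENSMUST00000046191, of 2788 bases and 36.4% of the sum, had 6.08, 5.72 and 5.90 FPKM in the controls, 7.29, 8.52 and 7.01 FPKM in the model group, 4.89, 3.70 and 5.00 FPKM with silibinin and 4.11, 5.58 and 5.58 FPKM with phloridzin. Most of the difference in the sum came from ENSMUST00000228451, an annotated coding transcript of only 581 bases. It had 6.53, 0.746 and 0.0785 FPKM in the control livers and 13.9, 13.6 and 10 FPKM in the model livers, with 0.844 to 8.63 FPKM under silibinin and 0.236 to 6.05 FPKM under phloridzin, a spread of many times between livers treated alike. A NONCODE transcript without a gene symbol, NONMMUT020562.2, lies on the same strand inside the span of Gnpnat1 (45376464 to 45378058) and was not part of the sum. It had 26.6, 25.2 and 23.4 FPKM in the control group and 27.7, 23.2 and 23.8 FPKM in the model group. With it added, the sums were 36.8 ± 5.45 FPKM in the control, 51.6 ± 7.25 in the model, 31.4 ± 5.09 in the silibinin and 32.0 ± 4.83 in the phloridzin group (SD, n = 3 livers each).

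Pgm3 (phosphoacetylglucosamine mutase) showed the least separation of the groups. Its sum was 4.71, 6.04 and 8.04 FPKM in the control livers and 13.2, 6.25 and 9.89 FPKM in the model livers, and it was 9.82, 5.76 and 4.06 FPKM with silibinin and 5.21, 5.04 and 3.85 FPKM with phloridzin. The model group overlapped the control and silibinin groups. In the model livers, transcripts annotated as retained introns made up most of the sum, whereas the coding transcripts made up most of the high sums of silibinin replicate 1 and control replicate 3. The coding transcript ENSMUST00000070064 had 2.27, 3.51 and 5.97 FPKM in the controls and 2.95, 1.90 and 2.46 FPKM in the model group, whereas the retained-intron transcript ENSMUST00000186193 had 1.53, 1.46 and 1.35 FPKM in the controls and 7.11, 2.17 and 5.07 FPKM in the model group. Over all transcripts annotated as coding, the mean of the model group was 0.622 times that of the control group, and the direction of the difference thus turned when these transcripts alone were summed. The same holds for the drug groups, where the mean of the coding transcripts in the model group was 0.663 times that of the silibinin group and 0.831 times that of the phloridzin group.

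Uap1, which joins GlcNAc 1-phosphate to UTP, had 12.6, 17.2 and 10.7 FPKM in the control group and 27.5, 23.5 and 21.0 FPKM in the model group. Silibinin livers were at 11.2, 14.2 and 14.3 FPKM and phloridzin livers at 9.08, 11.1 and 13.5 FPKM, so the model group was apart from the other 9 livers. The transcript ENSMUST00000111350 carried 39.1% of the sum and had 5.46, 4.27 and 5.40 FPKM in the controls against 11.1, 11.1 and 9.5 FPKM in the model group. The coding transcript ENSMUST00000027981 did not follow, with 3.00 to 4.69 FPKM in the controls and 3.45 to 3.94 FPKM in the model group. It had 1.01 to 1.73 FPKM in the phloridzin group, below its range in the silibinin group of 3.05 to 4.36 FPKM. For ENSMUST00000111350 the order was the opposite, with 3.45, 4.02 and 2.86 FPKM in the silibinin group and 4.64, 5.66 and 5.24 FPKM in the phloridzin group. The remaining coding transcript, ENSMUST00000111351, spans 170142002 to 170174946, beside 170142003 to 170174946 for ENSMUST00000027981. It varied between livers treated alike, at 0.144 to 3.71 FPKM in the controls, 0.541 to 3.87 with silibinin and 0.0985 to 2.86 with phloridzin. How fragments were divided between these transcripts was not tested, so no switch between the drugs is read from them. The retained-intron and other noncoding transcripts of Uap1 had a mean of 3.34 ± 1.16 FPKM in the controls and 8.67 ± 0.866 FPKM in the model livers (SD, n = 3 each).

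**Figure D2:**
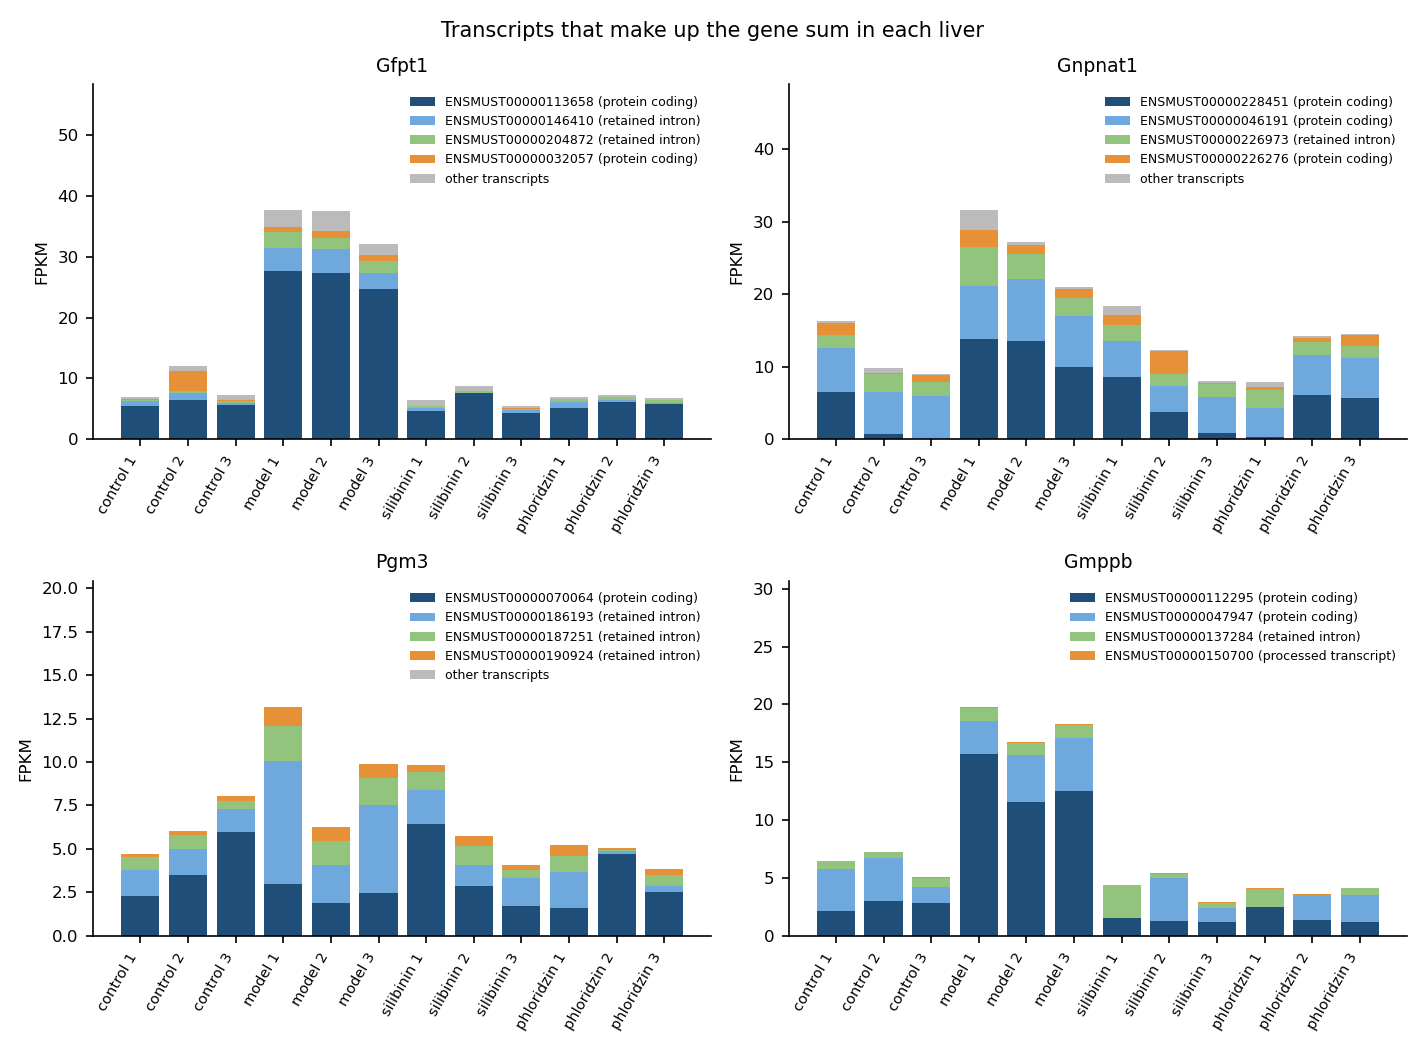
Stacked bars give the FPKM of each transcript in each of the 12 livers for Gfpt1, Gnpnat1, Pgm3 and Gmppb, on a linear axis from 0, with the 4 transcripts of highest mean in colour and the rest in grey. The higher level of Gfpt1 and Gmppb in the model livers is carried by a coding transcript (dark blue), that of Pgm3 by retained-intron transcripts, and the short coding transcript of Gnpnat1 (dark blue) varies between livers of the same group.

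Gmppb, the catalytic subunit of GDP-mannose pyrophosphorylase, had 6.47, 7.21 and 5.07 FPKM in the control livers and 19.8, 16.7 and 18.3 FPKM in the model livers. With silibinin it had 4.35, 5.42 and 2.92 FPKM and with phloridzin 4.14, 3.62 and 4.08 FPKM. The livers of the phloridzin group all lay below the controls, and those of the silibinin group overlapped them. The coding transcript ENSMUST00000112295 went from 2.11, 3.00 and 2.83 FPKM in the controls to 15.7, 11.6 and 12.5 FPKM in the model group and was at 1.15 to 2.45 FPKM in the 6 drug-treated livers. The other coding transcript, ENSMUST00000047947, showed no such difference, at 1.41 to 3.76 FPKM in the controls and 2.90 to 4.55 FPKM in the model group.

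Gmds, which encodes GDP-mannose 4,6-dehydratase, was low in the controls, near the filter of 0.5 FPKM, at 0.655, 0.542 and 0.509 FPKM. The model livers had 4.08, 2.45 and 3.00 FPKM, the silibinin livers 1.18, 0.690 and 0.690 FPKM and the phloridzin livers 1.51, 0.788 and 0.739 FPKM. All drug-treated livers lay between the controls and the model group. The coding transcript ENSMUST00000041859 was represented by 71, 57 and 73 fragments in the controls and 400, 401 and 360 in the model group. Nans, the sialic acid synthase, had 3.01, 3.53 and 3.09 FPKM in the controls and 11.5, 12.3 and 12.3 FPKM in the model group, the tightest of the higher groups. The silibinin livers had 4.88, 4.46 and 3.15 FPKM. Among the phloridzin livers, replicate 1 was at 7.26 FPKM, above the 3.49 and 2.86 FPKM of the others, and it also had the highest Gmds value of that group. A single coding transcript, ENSMUST00000030018, carried 95.5% of Nans.

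Pgm2 went the other way. It had 82.0, 86.4 and 80.4 FPKM in the control livers, 57.3, 63.5 and 65.0 FPKM in the model livers, 86.3, 91.1 and 90.7 FPKM with silibinin and 94.1, 85.0 and 89.3 FPKM with phloridzin. The model livers were below all 9 others, the groups were tight, and a single transcript carried 99.9% of the sum. The row named Pgm1, the related gene on chromosome 5, showed the opposite pattern at a level far below, with 2.13, 1.86 and 1.29 FPKM in the controls, 5.65, 8.88 and 7.57 FPKM in the model group, 2.82, 3.00 and 2.08 FPKM with silibinin and 3.31, 2.73 and 2.82 FPKM with phloridzin. The ratio of Pgm2 to Gfpt1 FPKM was 7.17 to 11.7 in the control livers, 1.52 to 2.02 in the model livers, 10.5 to 16.8 in the silibinin livers and 11.7 to 13.5 in the phloridzin livers.

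The comparison of the model with the control group is given on the scale of log2(FPKM + 1), which understates the change of low genes. The log2 fold change of Gfpt1 was 1.94 (standard error 0.20, 95% interval 1.5 to 2.39) and that of Gfpt2 1.80 (0.21, 1.33 to 2.26). With a pseudocount of 0.1 in place of 1, Gfpt2 had 3.64 and Gmds 2.27, so the order of the genes by fold change depends on the pseudocount. Nans had 1.63 (95% interval 1.09 to 2.18), Gmppb with 1.42 (1.02 to 1.82), Gmds with 1.40 (0.98 to 1.81) and Gnpnat1 with 1.14 (0.43 to 1.86). Uap1 had 0.80 (0.37 to 1.23) and Pgm3 0.54 (-0.14 to 1.22), an interval that includes 0. Pgm2 had -0.42 (-0.65 to -0.19). Against the cutoffs used for all genes (limma, Benjamini-Hochberg adjusted p under 0.05, and a change of more than 1 log2 unit up or down), 6 of the 9 genes were higher, beside 9.42% of all genes tested (1240 of 13158). No member was lower at these cutoffs, beside 1.08% of all genes (142). As the genes were chosen from this contrast, nothing is read from these counts. The median log2 fold change was 1.40 over the 9 genes and 0.34 over all genes tested.

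That shift of all genes depends on scaling. With FPKM scaled between livers by median ratios, the log2 fold changes of all genes were lower than as deposited by a median of 0.38, and their median went from 0.34 to -0.01. Of the genes past the cutoffs, 89.7% were higher with the values as deposited and 50.5% after scaling (490 higher and 480 lower). After scaling, Gfpt2 stood at 1.59, Gfpt1 at 1.5, Nans at 1.23, Gmds at 1.13 and Gmppb at 0.99, while Gnpnat1 (0.69), Uap1 (0.35) and Pgm3 (0.12) were closer to 0 and Pgm2 was at -0.89. The directions of all 9 genes were the same with and without scaling, and the calls of Gnpnat1 and Gmppb ended with it. The call of Gnpnat1 also ended with its highest transcript in place of the sum, where the log2 fold change was 2.47 but the livers were spread. It ended as well without control replicate 2 (1.05), control replicate 3 (0.99), model replicate 1 (1.01) or model replicate 2 (1.12).

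The comparisons of the drug groups with the model group share the 3 model livers and are given side by side. Gfpt1 had a log2 fold change of -2.24 with silibinin (95% interval -2.69 to -1.80) and of -2.19 with phloridzin (-2.64 to -1.75). For Gmppb the values were -1.91 (-2.31 to -1.5) and -1.96 (-2.36 to -1.56), for Nans -1.35 (-1.90 to -0.80) and -1.32 (-1.87 to -0.77), and for Gfpt2 -1.14 (-1.60 to -0.67) and -1.41 (-1.87 to -0.94). Gmds had -1.16 with silibinin and -1.06 with phloridzin, Gnpnat1 -1.04 and -1.09, Uap1 -0.82 and -1.04, and Pgm3 -0.53 (-1.22 to 0.15) and -0.87 (-1.56 to -0.19). With the highest transcript or the coding transcripts alone, Pgm3 turned to 0.33 with silibinin and 0.13 with phloridzin. Pgm2 was higher than in the model group by 0.52 with either drug (0.29 to 0.75 for both). In the limma fit, 5 of the 9 genes passed the cutoffs as lower with silibinin, beside 3.25% of all genes tested (428), and 6 as lower with phloridzin, beside 2.92% (384). Of all genes, 0.745% (98) were higher with silibinin and 0.6% (79) with phloridzin. As these contrasts also served to choose the genes, nothing is read from the counts. The median over the 9 genes was -1.14 with silibinin and -1.09 with phloridzin, against -0.15 and -0.11 over all genes.

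The log2 fold changes of all genes as deposited, minus those after scaling by median ratios, had a median of -0.18 in the silibinin comparison and of -0.15 in the phloridzin comparison. With scaling, the share of calls that were higher went from 18.6% to 44.2% and from 17.1% to 37.1%. The scaled values were -2.03 and -2.01 for Gfpt1, -1.70 and -1.78 for Gmppb, -1.15 and -1.15 for Nans, and 0.74 and 0.70 for Pgm2. They were -0.98 and -1.24 for Gfpt2, -1.0 and -0.91 for Gmds, -0.83 and -0.91 for Gnpnat1, -0.61 and -0.86 for Uap1 and -0.34 and -0.70 for Pgm3, with the same directions as without scaling. Scaling ended the calls of Gfpt2 and Gmds with silibinin and of Uap1 and Gmds with phloridzin. With only the compared groups in the fit, the phloridzin calls of Gmds and Nans ended, with log2 fold changes unchanged at -1.06 and -1.32. Without phloridzin replicate 1, the phloridzin values were -2.19 for Gfpt1, -1.99 for Gmppb, -1.65 for Nans, -1.35 for Gfpt2, -1.23 for Gmds, -0.94 for Pgm3, -0.91 for Uap1, -0.83 for Gnpnat1 and 0.49 for Pgm2. The call of Uap1 ended without this liver and also without model replicate 1 (-0.94). The phloridzin call of Gmds ended without model replicate 1 (-0.90), phloridzin replicate 2 (-0.98) or phloridzin replicate 3 (-0.96), and the silibinin call of Gfpt2 without silibinin replicate 3 (-0.99). Gnpnat1 gained a call with silibinin without silibinin replicate 1 (-1.31) or phloridzin replicate 1 (-1.04), and with phloridzin at a filter of 2 FPKM or without control replicate 1, silibinin replicate 1 or silibinin replicate 3 (-1.09 each). With the highest transcript in place of the sum, the phloridzin calls of Uap1 and Gmds ended (-0.91 each), and Uap1 gained a call with silibinin (-1.39).

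**Figure D3:**
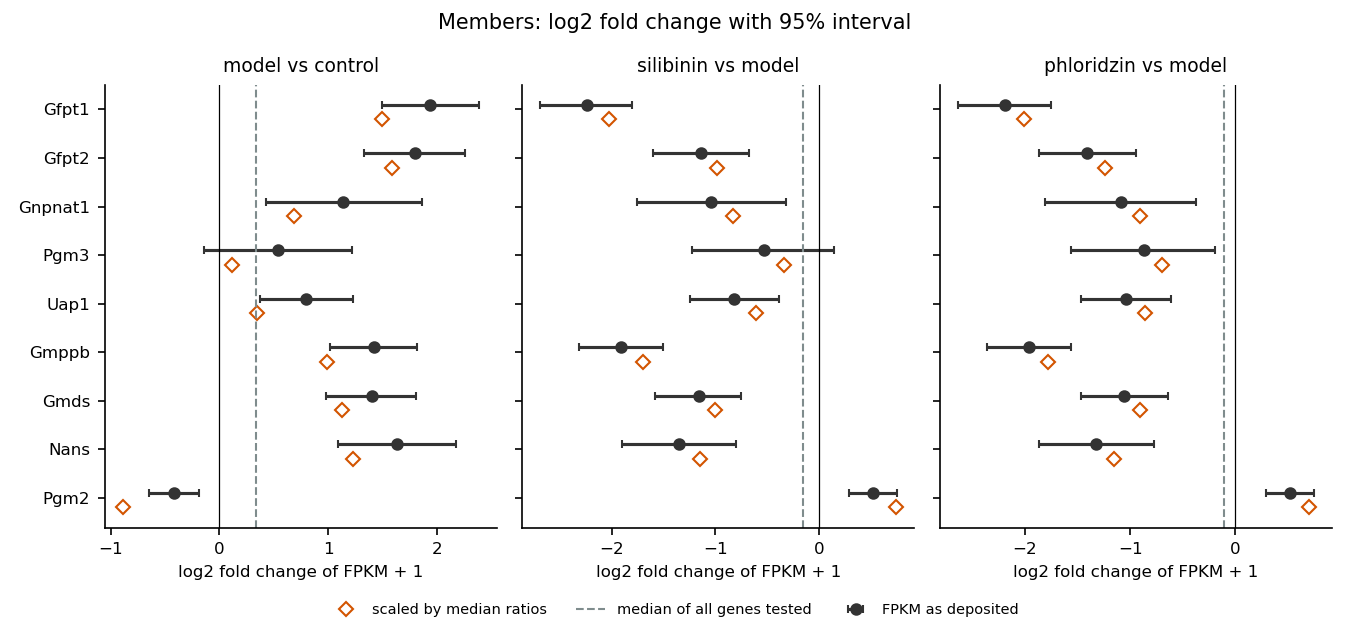
Log2 fold changes of FPKM + 1 for the 9 genes in 3 comparisons; black points are values as deposited with their 95% intervals, open diamonds the values after scaling by median ratios, and the dashed line the median of all genes tested. In the model group 8 genes lie to the right of 0 and Pgm2 to the left at -0.42, and with either drug the sides are exchanged; Pgm3 lies on the other side in each comparison when only coding transcripts are summed.

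In the direct comparison of phloridzin with silibinin, 0 of the 9 genes passed the cutoffs of limma and 0 had an unadjusted p under 0.05, beside 0.0228% of all genes tested (3 of 13158, with 494 at an unadjusted p under 0.05). The 3 genes are Klhdc7a, Pcgf6 and Wdr89 (limma adjusted p = 0.00123, 0.00935 and 0.0119), named after their values were seen because they are so few. The levels of these groups also served to choose the 9 genes, and nothing is read from the count of 0. The log2 fold change of phloridzin over silibinin was 0.05 for Gfpt1 (95% interval -0.40 to 0.50), -0.27 for Gfpt2 (-0.74 to 0.19), -0.05 for Gnpnat1 (-0.77 to 0.67), -0.34 for Pgm3 (-1.03 to 0.34) and -0.23 for Uap1 (-0.66 to 0.20). It was -0.05 for Gmppb (-0.46 to 0.35), 0.11 for Gmds (-0.31 to 0.52), 0.03 for Nans (-0.51 to 0.58) and 0.00 for Pgm2 (-0.23 to 0.23). Without phloridzin replicate 1, the values were 0.05 for Gfpt1, -0.22 for Gfpt2, 0.21 for Gnpnat1, -0.41 for Pgm3, -0.10 for Uap1, -0.08 for Gmppb, -0.06 for Gmds, -0.30 for Nans and -0.04 for Pgm2. Gnpnat1, Gmds and Nans thus changed sign, as did Pgm2 from just above 0. These intervals hold on the scale of log2(FPKM + 1) and do not show that the drugs act alike.

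Against the control group, the drug groups show how near these genes came to livers without CCl4. With silibinin, the log2 fold changes were -0.30 for Gfpt1 (95% interval -0.74 to 0.15), 0.66 for Gfpt2 (0.20 to 1.13) and -0.49 for Gmppb (-0.89 to -0.09), and those of the other 6 genes were between -0.01 and 0.28 with intervals that include 0. With phloridzin, Gmppb had -0.54 (-0.95 to -0.14), Gfpt2 0.39 (-0.07 to 0.85) and Gfpt1 -0.25 (-0.69 to 0.20), and the other 6 genes were between -0.33 and 0.34 with intervals that include 0. Without phloridzin replicate 1, Gmppb had -0.57, Gfpt2 0.45, Gfpt1 -0.24, Gnpnat1 0.32, Pgm3 -0.40, Uap1 -0.11, Gmds 0.17, Nans -0.02 and Pgm2 0.07, so that Nans, at 0.31 with all livers, changed sign. The values of all genes as deposited were above the scaled ones by a median of 0.20 with silibinin and 0.23 with phloridzin. With scaling, the share of calls that were higher went from 87.7% to 71.4% and from 90.5% to 73.7%. It turned the sign of Gnpnat1 (0.10 to -0.13), Pgm3 (0.01 to -0.22) and Pgm2 (0.11 to -0.15) with silibinin, and of Gnpnat1 (0.05 to -0.21) and Pgm2 (0.11 to -0.18) with phloridzin. No direction against the controls is therefore given for these 3 genes. After scaling, Gmppb had -0.71 with silibinin and -0.79 with phloridzin, so its mean was below that of the controls either way, while Gfpt2 remained above the controls. In limma, 0 of the 9 genes passed the cutoffs in either comparison, beside 1.98% of all genes with silibinin (261) and 3.02% with phloridzin (398). At an unadjusted p under 0.05 there were 2 of the 9 with silibinin, beside 2830 of 13158 genes, and 1 with phloridzin, beside 3235. Nothing is read from these counts.

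The other genes of these pathways were taken from 6 lists with 70 symbols, of which 67 were in the table and 64 were tested. In the model group, 7 were higher and 1 was lower at the cutoffs (10.9% and 1.6% of those tested, beside 9.42% and 1.08% of all genes), with a median log2 fold change of 0.41 beside 0.34 over all genes. With silibinin and with phloridzin, 7 genes were lower than in the model group (10.9%, beside 3.25% and 2.92% of all genes), with medians of -0.25 and -0.20 beside -0.15 and -0.11. Against the controls, 1 gene was lower with either drug, Glul, and 0 passed between the drugs in limma, where 1 had an unadjusted p under 0.05. The lists were chosen with earlier results of these livers known, so nothing is read from these shares or from the counts per list below. For each listed gene that passed in a comparison, here and below, the 3 livers of the compared groups did not overlap.

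Among genes of hexosamine supply and turnover, 2 of 14 were higher in the model group, 1 was lower and 11 did not pass, with a list median of 0.56. Glul, the glutamine synthetase that makes the amino donor of the entry step, was the most abundant. It had 451.3, 299.5 and 383.0 FPKM in the controls and 31.1, 34.1 and 36.4 FPKM in the model livers, and its log2 fold change was -3.43 (limma, Benjamini-Hochberg adjusted p = 4.4e-06, lower in 3 of 3 livers). Under the drugs it lay between the model and control groups, without overlap with either. Silibinin livers had 53.7, 73.4 and 57.1 FPKM and phloridzin livers 52.9, 78.0 and 55.5 FPKM, with log2 fold changes against the controls of -2.60 (adjusted p = 0.0002) and -2.59 (adjusted p = 0.00025, limma). Against the model group they were 0.83 and 0.84 (limma adjusted p = 0.02 and 0.021), short of the fold change cutoff. Glul is known as a gene of the hepatocytes around the central vein, as is Cyp2e1, which had 1372.8 to 3678.7 FPKM in the controls, 475.2 to 547.8 FPKM in the model group, 683.6 to 1553.6 FPKM with silibinin and 357.0 to 488.0 FPKM with phloridzin. The part of these cells in the Glul result was not tested. Hk2, a hexokinase, and Gpi1, which makes fructose 6-phosphate, were higher in the model group with log2 fold changes of 1.06 each (limma adjusted p = 0.00097 and 0.0055). Under both drugs they stayed above the controls without overlap, though short of the cutoffs. Hk2 had means of 0.635 FPKM in the controls, 2.4 in the model group, 1.3 with silibinin and 1.53 with phloridzin. For Gpi1 these were 28.0, 59.5, 48.4 and 50.2 FPKM, and its drug groups overlapped the model group.

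In the list of UDP-glucose, UDP-galactose and UDP-glucuronate, the median log2 fold change over 10 genes was 0.36 in the model group. The row named Pgm1 was higher there, at 1.59 (limma adjusted p = 0.00023), and lower than in the model group with silibinin (-1.20, adjusted p = 0.0021) and with phloridzin (-1.07, adjusted p = 0.0043). Ugp2, the UDP-glucose pyrophosphorylase and the most abundant gene of the list, did not pass in any comparison and ranged from 87.3 to 165.1 FPKM in the controls and from 159.7 to 205.5 FPKM in the model group.

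In the list of GDP-mannose and GDP-fucose, 1 of 7 genes was higher in the model group and 2 were lower with either drug, with medians of 0.43, -0.29 and -0.29. Gmppa, the regulatory partner of Gmppb, had 7.59, 7.03 and 10.9 FPKM in the controls, 20.1, 24.2 and 13.4 FPKM in the model group and 5.14 to 8.64 FPKM in the 6 drug-treated livers. Its log2 fold changes were 1.07 in the model group, -1.41 with silibinin and -1.42 with phloridzin (limma adjusted p = 0.0099, 0.0062 and 0.0063). Pmm1, a phosphomannomutase, was lower than in the model group by the same cutoffs (-1.55 with each drug, limma adjusted p = 0.00024 and 0.00027), and at 1.36 to 1.73 FPKM in the drug-treated livers it was also under the 2.33 to 3.51 FPKM of the controls. Tsta3, the enzyme after Gmds, had a mean over the 12 livers of 10.2 FPKM, as did Gmppa. It had 8.57 to 11.4 FPKM in the controls and 10.5 to 15.1 FPKM in the model group and passed in no comparison.

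Of the 5 other genes of sialic acid metabolism, 0 passed in the model group and 0 had an unadjusted p under 0.05 in limma (beside 6030 of 13158 genes), with a median of 0.29 beside 0.34 over all genes. The most abundant was Cmas, which activates sialic acid, at 20.7 to 22.6 FPKM in the controls and 26.0 to 28.8 FPKM in the model group. Among genes of the Slc35 family, listed here as nucleotide sugar transporters, 2 of 13 were higher in the model group, and the median was 0.62. What each of them carries was not tested. Slc35b1, a transporter of the endoplasmic reticulum, had 21.5, 23.4 and 20.0 FPKM in the controls, 59.7, 55.0 and 58.5 FPKM in the model group, 17.6, 16.7 and 12.9 FPKM with silibinin and 25.0, 11.1 and 13.5 FPKM with phloridzin. Its log2 fold changes were 1.38 in the model group (limma adjusted p = 0.0019) and -1.82 with each drug (adjusted p = 0.00095 and 0.001). Slc35c1, the GDP-fucose transporter of the Golgi, had 1.08 in the model group (limma adjusted p = 0.00034). Slc35d1, the most abundant transporter, passed in no comparison and had 45.4 to 68.6 FPKM in the controls and 76.6 to 95.8 FPKM in the model group.

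Of the genes that first use these sugars, 15 of 18 were tested. In the model group 0 passed the cutoffs and 8 had an unadjusted p under 0.05 in limma (beside 6030 of 13158 genes), with a median of 0.42. With either drug 2 were lower than in the model group, namely Alg2, a mannosyltransferase of the lipid-linked glycan (-1.12 each, limma adjusted p = 0.0018 with silibinin and 0.002 with phloridzin), and Mgat2, which adds GlcNAc to N-glycans (-1.03 and -1.04, limma adjusted p = 0.0048 and 0.0046). Mgat2 had 21.3 to 26.1 FPKM in the controls and 41.4 to 48.8 FPKM in the model group. Dpm3, the most abundant of these genes, passed in no comparison, with 33.2 to 39.9 FPKM in the controls and 32.5 to 38.2 FPKM in the model group. The hyaluronan synthases Has1, Has2 and Has3 were under the filter, at most 0.597 FPKM in any liver.

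**Figure D4:**
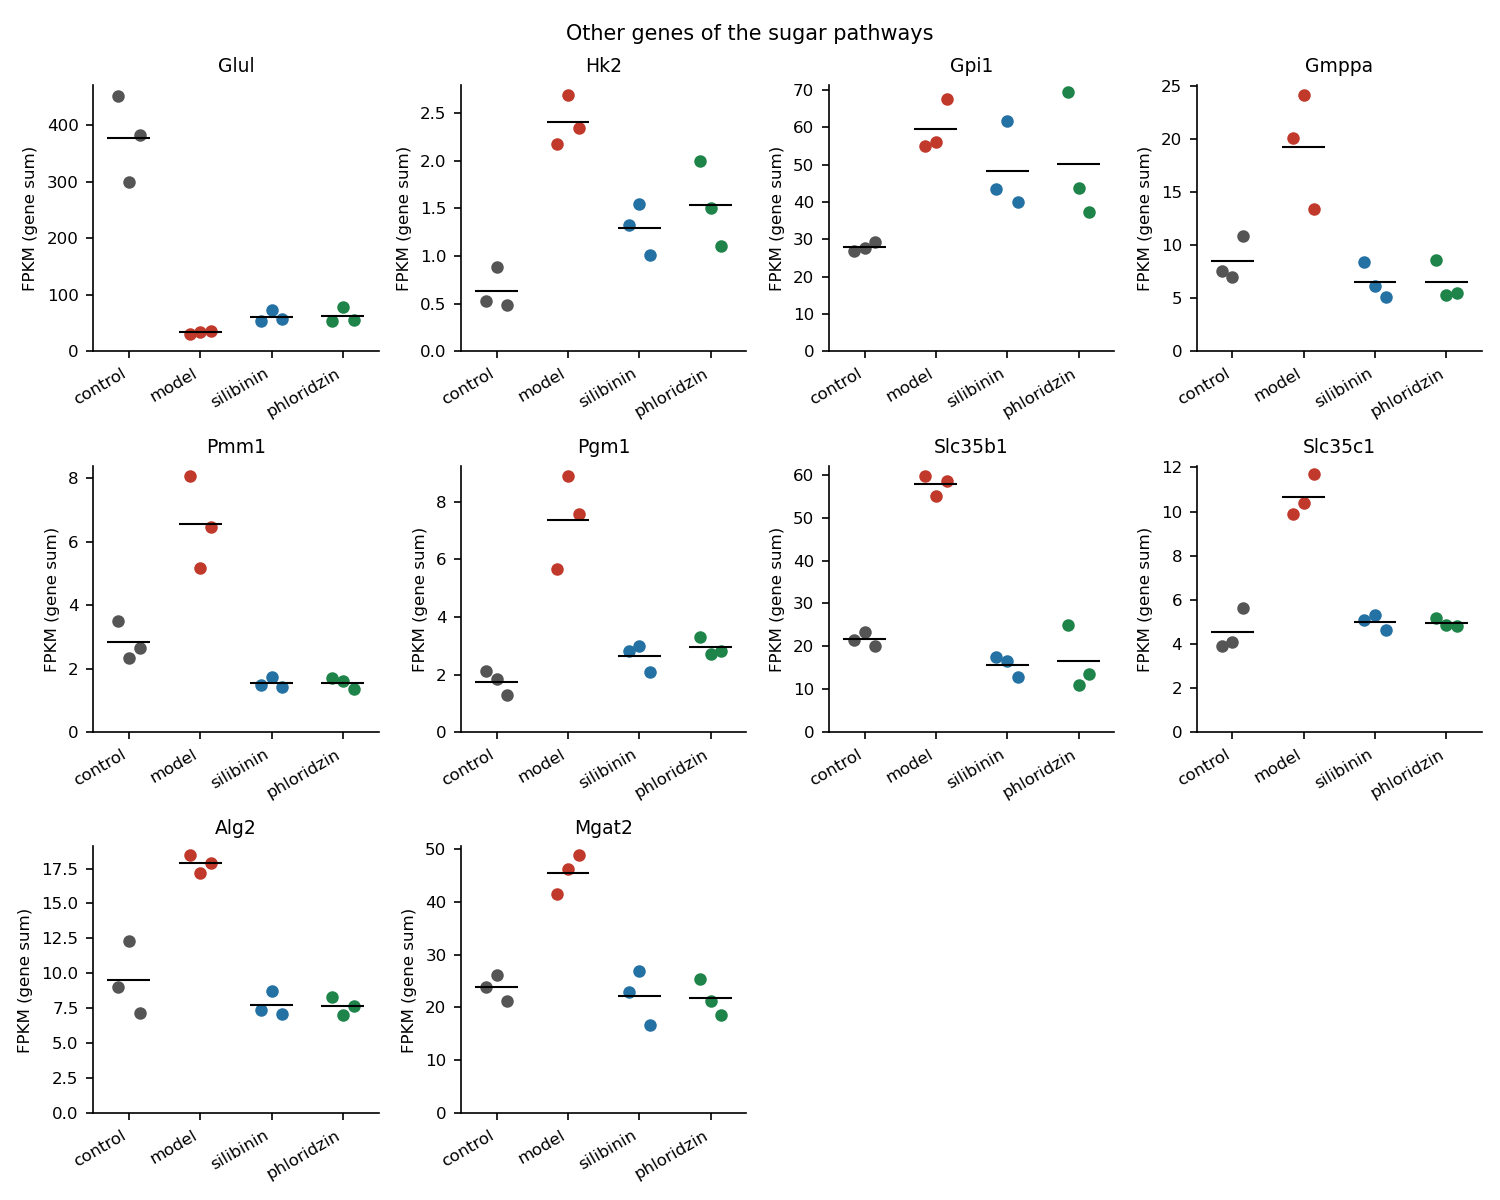
Each panel plots 1 of 10 other pathway genes described in the text that passed the cutoffs in at least 1 comparison, as the gene sum in FPKM on a linear axis from 0, with 3 livers and the mean for each group. Slc35b1 is high in the model livers alone, whereas Glul is far below the controls in the model group and in both drug groups.

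Genes of the endoplasmic reticulum stress response are given beside the 9 genes. Of 7 such genes, 6 were higher in the model group (beside 9.42% of all genes), 5 were lower with silibinin than in the model group (beside 3.25%) and 6 were lower with phloridzin (beside 2.92%), with medians of 1.70, -2.25 and -2.16. As this list too was chosen with earlier results known, nothing is read from its counts. Hspa5, the main chaperone of the endoplasmic reticulum and the most abundant of the list, had 129.6, 176.4 and 127.1 FPKM in the controls and 471.1, 517.4 and 542.6 FPKM in the model group. With silibinin it had 84.0, 89.7 and 61.8 FPKM and with phloridzin 75.0, 83.9 and 77.3 FPKM, below every control liver. Its log2 fold change was 1.83 for the model group (limma adjusted p = 0.0001) and -2.70 and -2.68 with silibinin and phloridzin (adjusted p = 1.2e-05 and 1.4e-05). Sdf2l1 and Dnajb9, which encode other proteins of that compartment, followed it, with 1.70 and 1.71 for the model over the control group (limma adjusted p = 0.00029 and 0.00015). Sdf2l1 was also lower with phloridzin than in the controls (-1.13, limma adjusted p = 0.012). The transcription factor gene Ddit3 was uneven in the model group, at 4.58, 31.1 and 42.0 FPKM beside 0.702 to 1.27 FPKM in the controls. Atf4 had 10.3, 15.1 and 15.7 FPKM in the model group and 3.89 to 5.84 FPKM in the controls, and Atf6 had 2.89, 6.69 and 3.58 FPKM beside 0.586 to 1.81 FPKM. These 3 factors were all called higher (limma adjusted p = 0.0021, 0.006 and 0.0085). Xbp1 passed in no comparison, at 70.3, 43.1 and 27.9 FPKM in the model livers and 27.2 to 32.5 FPKM in the controls. The part of this response in the levels of the 9 genes was not tested.

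Markers of other liver cells also differed between the groups. Of 8 genes of stellate cells and myofibroblasts, 5 were higher in the model group (limma), namely Col1a1, Col1a2, Col3a1, Lrat and Timp1. Beside this count and those of the lists below, 9.42% of all genes tested were higher. Col1a2, Timp1 and the macrophage gene Gpnmb had control means under the filter of 0.5 FPKM (0.395, 0.0637 and 0.18). They were tested only through the livers given CCl4, so nothing is read from their calls. The summed level of all 8 was 16.4, 11.6 and 12.4 FPKM in the controls, 145.1, 115.7 and 148.6 FPKM in the model group, 143.3, 134.9 and 59.9 FPKM with silibinin and 203.8, 72.0 and 55.9 FPKM with phloridzin. Col3a1 was the most abundant. Lrat was lower in all 6 drug-treated livers (5.75 to 10.9 FPKM) than in the model livers (11.9 to 14.9 FPKM), and 7 of the 8 genes had a negative log2 fold change with each drug against the model group. Timp1 was listed at 0 in control replicate 3. Macrophage genes were higher in the model group for 2 of 6 (Lyz2, the most abundant, and Gpnmb) with sums of 67.3, 123.8 and 115.3 FPKM in the controls, 258.7, 389.8 and 380.0 FPKM in the model group, 340.9, 417.8 and 257.7 FPKM with silibinin and 477.7, 429.6 and 220.8 FPKM with phloridzin, and Gpnmb was listed at 0 in control replicate 2. Cholangiocyte genes (5, of which 3 were tested and 1 was higher, the most abundant, Spp1) summed to 11.3, 13.0 and 16.7 FPKM in the controls, 46.2, 55.6 and 50.2 FPKM in the model group, 47.8, 48.7 and 24.1 FPKM with silibinin and 52.7, 26.8 and 25.7 FPKM with phloridzin. Genes listed for lymphocytes (4, of which 3 were tested and 1 was higher, the most abundant, Ptprc) summed to 5.35, 7.41 and 7.12 FPKM in the controls, 17.0, 22.9 and 22.5 FPKM in the model group, 12.5, 17.7 and 17.2 FPKM with silibinin and 24.6, 20.3 and 15.7 FPKM with phloridzin. This sum measures mainly Ptprc, with a mean of 17.8 of the 20.8 FPKM in the model group. Cd3e and Nkg7 did not pass there (limma adjusted p = 0.25 and 0.095).

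Hepatocyte, endothelial and neutrophil genes were listed in the same way. Of all genes tested, 9.42% were higher and 1.08% lower in the model group, and 6030 of 13158 had an unadjusted p under 0.05 in limma. Of 6 hepatocyte genes, 1 was lower in the model group, Cyp2e1, with a log2 fold change of -2.35 (limma adjusted p = 0.0014), and the sum, led by Alb, was 17254.7, 22319.4 and 16991.3 FPKM in the controls, 15824.4, 23947.4 and 27228.1 FPKM in the model group, 28070.1, 33282.2 and 17965.4 FPKM with silibinin and 21528.5, 28609.5 and 21357.5 FPKM with phloridzin. Among 5 genes of sinusoidal endothelial cells, led by Clec4g, 0 passed in limma and 1 had an unadjusted p under 0.05. Their sums were 52.6, 54.0 and 64.0 FPKM in the controls, 56.6, 72.7 and 61.8 FPKM in the model group, 40.3, 72.4 and 28.5 FPKM with silibinin and 72.4, 79.1 and 55.5 FPKM with phloridzin. Of 3 neutrophil genes, led by S100a8, 2 were tested, 0 passed in limma and 1 had an unadjusted p under 0.05, with sums of 17.3, 6.31 and 18.8 FPKM in the controls, 21.8, 60.8 and 35.8 FPKM in the model group, 14.4, 21.5 and 7.75 FPKM with silibinin and 16.8, 73.0 and 34.3 FPKM with phloridzin; S100a9 and Ly6g were at 0 in some livers. In the silibinin and phloridzin groups, 0 of the 33 tested markers passed against the model group, beside 3.25% and 2.92% of all genes as lower and 0.745% and 0.6% as higher. Of the markers, 4 and 3 had an unadjusted p under 0.05 in limma, beside 3844 and 3662 of the 13158 genes. Against the controls, 5 were higher with silibinin, beside 229 of the 13158 genes. With phloridzin, 7 were higher and 1 was lower than in the controls, beside 360 and 38 of the 13158 genes. Nothing is read from these counts. The part of these cell types in the levels of the 9 genes was not tested.

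**Figure D5:**
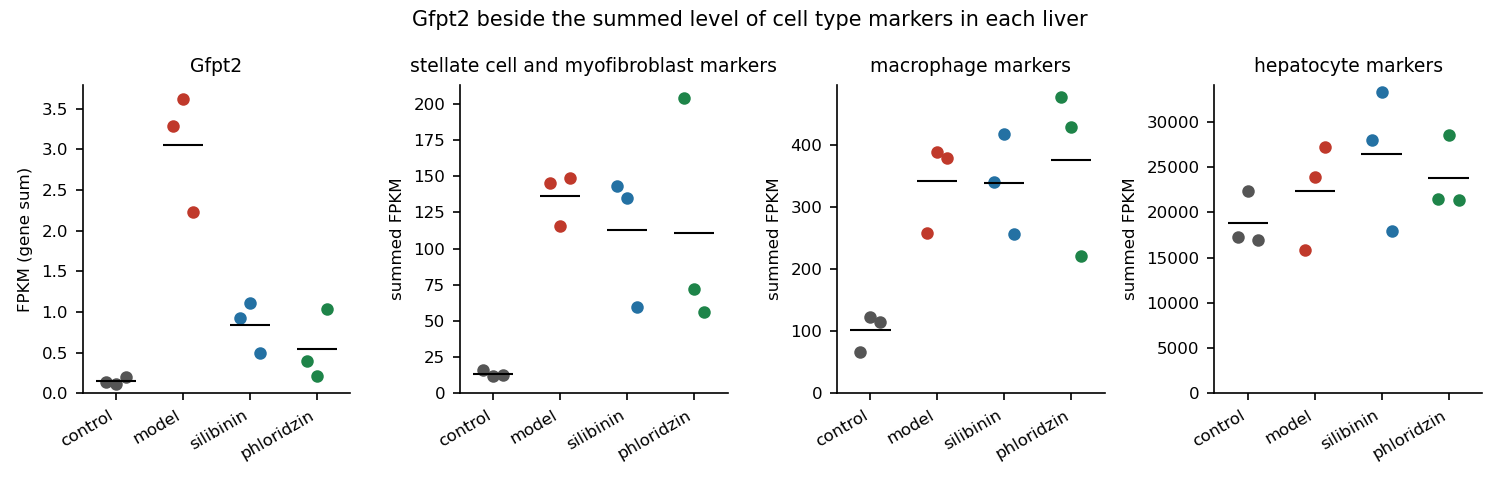
From left to right, Gfpt2 in FPKM and the summed FPKM of stellate cell and myofibroblast, macrophage and hepatocyte markers, with 3 livers and the mean for each group on linear axes from 0. Gfpt2 is lower in all 6 drug-treated livers than in the model livers. The sum of the stellate cell list follows its most abundant genes, Col3a1 and Col1a1, and not each gene of the list.

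The genes whose profile was nearest to the mean standardised profile of the 9 genes over the 12 livers were Entpd7 (Euclidean distance 0.56), Nktr (0.60), Fkbp14 (0.63), Rint1 (0.65) and Hhipl1 (0.67), where the median distance over all other genes tested was 3.84. Being picked for this likeness, they carry no test. Entpd7, a nucleotidase of internal membranes, had 1.70, 1.5 and 1.77 FPKM in the controls, 6.89, 6.17 and 5.86 FPKM in the model group, 2.47, 2.37 and 1.54 FPKM with silibinin and 1.68, 1.53 and 1.80 FPKM with phloridzin. Rint1, a protein of transport between the Golgi and the endoplasmic reticulum, had 8.78, 8.64 and 7.78 FPKM in the controls and 24.7, 19.6 and 19.1 FPKM in the model group. Fkbp14, a folding enzyme of the endoplasmic reticulum, had 1.80 to 2.07 FPKM in the controls and 4.30 to 5.19 FPKM in the model group.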

How the data were processed

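RNA from 12 livers (3 per group) was sequenced by the authors on the Illumina NovaSeq platform from total RNA with the NEB Next Ultra kit. The authors deposited FPKM values for 169430 transcripts, without a correction for library composition. The submitters' processing notes name HISAT2 2.1.0, StringTie 1.3.3b and DESeq 1.28.0 on mm10, without their roles. That the values are FPKM was checked on transcripts of 1500 bases or more, where FPKM multiplied by length was a whole multiple of 1 step per liver for 98.6 to 99.1% of low values (tolerance 0.05 fragments), which also gave the library sizes and fragment numbers.

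FPKM was summed over the 82136 transcripts with a symbol, all from Ensembl. The 68303 NONCODE and 18991 assembled transcripts carry no symbol and were left out. Genes with a mean of at least 0.5 FPKM were transformed to log2(FPKM + 1). In 1 fit of all 4 groups, limma with a mean-variance trend gave 6 comparisons. The p-values are two-sided and adjusted by the Benjamini-Hochberg method over all genes tested. The fit was tested on simulated data, and no result of that is given or used here. The 9 genes and all lists were chosen with earlier results of these data known. The genes named from each list are the most abundant one and genes past the cutoffs in at least 1 comparison; not every such gene is described. Alternatives covered the pseudocount, the filter, scaling, the groups in the fit, a replicate block, the choice of transcripts, the fold change cutoff and each liver left out. The limits are 3 livers per group, bulk tissue, a strand that is not stated, fragments that may have gone to transcripts without a symbol, and FPKM, which is relative to the library. RNA levels do not give enzyme activity or sugar levels. The software was R 4.3.3, limma 3.58.1, Python 3.11.15, numpy 2.4.6, pandas 2.3.3 and matplotlib 3.10.9.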

Additional observations from a re-analysis of the deposited data

How the results depend on the processing

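The sum over Ensembl transcripts alone, which equals the reported one, and the setting without a fold change cutoff, given below, are not part of the next counts. For the 9 genes, 16 of 420 calls changed with a setting and 15 of 648 when a liver was left out, and no called value changed its direction. A pseudocount of 0.1 gave 2376 higher and 220 lower genes in the model group, 158 higher with silibinin and 128 higher with phloridzin, 828 and 1103 genes against the controls, and 1 of the 9 genes (Gfpt2) against the controls with silibinin. Scaling by median ratios gave 490 higher and 480 lower genes in the model group, 188 and 237 with silibinin, 140 and 237 with phloridzin and 243 for phloridzin against the controls, and left 3 of the 9 genes lower with silibinin. A mean FPKM of at least 2, which removes Gfpt2 and Gmds, also left 3, and gave 1 gene between the drugs. With only the compared groups in the fit, 38 genes were higher with phloridzin, 0 differed between the drugs and 143 differed between phloridzin and the controls. The highest transcript in place of the sum gave 5, 117 and 190 genes between the drugs, for silibinin and for phloridzin against the controls. Without a fold change cutoff, 4094 genes were higher and 500 lower in the model group, 345 and 1504 with silibinin, 329 and 1362 with phloridzin, and 661 and 1051 differed from the controls; Pgm2 was then the 1 gene of the 9 called lower in the model group and the 1 called higher with each drug. Other than for scaling, the filter and the cutoff, the cause was not tested. Leaving out each liver gave 47 to 135 genes higher with silibinin and 34 to 117 higher with phloridzin, both lowest without model replicate 2. It gave 48 higher with phloridzin without phloridzin replicate 2. Between the drugs it gave 1 to 6 genes, lowest without silibinin replicate 2 and highest without phloridzin replicate 1, with 5 without silibinin replicate 1 or phloridzin replicate 2. Of the 9 genes, 5 to 6 were then higher in the model group, beside 1131 to 1305 of all genes. With silibinin 4 to 6 were lower, beside 359 to 446 of all genes, and with phloridzin 4 to 7, beside 319 to 522. Against the controls it gave 101 to 400 genes for silibinin, with 136 and 155 without control replicates 1 and 2, 101 and 102 without silibinin replicates 1 and 2 and 400 without phloridzin replicate 1. For phloridzin it gave 214 to 635, with 214 and 240 without control replicates 1 and 2, 245 without phloridzin replicate 1 and 635 without phloridzin replicate 3. With the replicate number as a replicate block, 1229 genes were higher and 134 lower in the model group, 92 and 416 with silibinin, 74 and 375 with phloridzin, and 3, 237 and 347 in the other comparisons, and 6, 5 and 6 of the 9 genes were called. Deviations of same-numbered livers from their group means correlated between -0.09 and 0.10 over 18 pairs, which shows no pairing by these numbers. The numbers are those of the sample titles, and another pairing or a shared batch was not tested. A sum over protein-coding transcripts, chosen after seeing the data, moved Pgm3 to -0.46 in the model group. It ended the phloridzin calls of Uap1 (-0.90) and Gmds (-0.91), whose main values were -1.04 and -1.06. Depth limits Gfpt2, whose coding transcript had 18 to 45 fragments in the control livers.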
